A study of Mus musculus with 8 samples.

Results

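The p53 target genes Cdkn1a, Mdm2, Ccng1, Bax, Bbc3, Pmaip1, Trp53inp1, Sesn1, Phlda3 and Aen were followed in the small intestine of suckling mice after arsenic. These 10 genes were taken by symbol from a list of p53 targets, out of 24411 gene symbols in the count table, and all 10 were among the 15298 genes with enough counts to be tested. The arsenic group received inorganic arsenic at 10 mg/kg and the vehicle group received vehicle. All mice of both groups were of the hUGT1 transgenic line, which carries the human UGT1 locus, were 14 days old, and are labelled with a time of 24 h. RNA of 3 mice was combined for each library, so that 12 mice per group gave 4 arsenic pools and 4 vehicle pools, and the spread given here is that between pools. The labels do not name the segment of the small intestine or the route of dosing.

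p53 is a transcription factor that is stabilised by DNA damage and other stress and binds paired copies of a 10 base half-site near its target genes. The targets stop the cell cycle, repair DNA, adjust metabolism or start cell death, and Mdm2, itself a target, marks p53 for destruction and so closes a feedback loop. In the small intestine p53 is best known from irradiated crypts, where Bbc3 drives the death of crypt cells and Cdkn1a holds division back. p53 activity is set largely by the amount of protein, which RNA counts do not measure.

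The promoter sequences held in RefSeq (GRCm38.p6) show which of these genes carry letters of the p53 half-site close to a start site, and are printed for the 6 genes with such a match. Windows of 300 bases, 250 before and 50 after an annotated start, were available for 8 of the 10 genes, in 13 windows. Trp53inp1 and Pmaip1 had no window and were not searched, and the windows of Bbc3 and Phlda3 held no such match. In the stretches below, written 5′ to 3′ on the strand of the gene, capitals mark the half-sites of the pair with fewest mismatches and shortest spacer in each window, of a further pair with at most 1 mismatch, or, where there is no pair, the exact half-site. For Cdkn1a (chr17:29090886-29090967, plus strand), Ccng1 (chr11:40755442-40755501, minus strand), Bax (chr7:45467059-45467119, minus strand) and Sesn1 (chr10:41887233-41887295, plus strand) these are paired half-sites. For Mdm2 (chr10:117710915-117710964, minus strand) and Aen (chr7:78895917-78895966, plus strand) they are single exact ones. Aen has 2 annotated starts, and its half-site lies before the downstream one and just after the upstream one.
Cdkn1a: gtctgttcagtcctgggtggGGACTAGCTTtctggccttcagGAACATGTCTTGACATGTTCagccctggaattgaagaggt
Ccng1: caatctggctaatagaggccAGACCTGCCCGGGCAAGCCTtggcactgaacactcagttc
Bax: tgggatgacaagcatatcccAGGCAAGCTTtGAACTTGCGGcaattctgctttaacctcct
Sesn1: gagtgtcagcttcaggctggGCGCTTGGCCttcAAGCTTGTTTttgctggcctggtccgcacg
Mdm2: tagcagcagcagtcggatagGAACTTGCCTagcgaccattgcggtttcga
Aen: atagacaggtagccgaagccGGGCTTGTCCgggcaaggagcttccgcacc

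Cdkn1a held the closest match, in the window of the upstream one of its 2 annotated starts. There, 2 half-sites without mismatch lay 12 bases apart between positions -73 and -42 from that start, and the downstream one ran without a spacer into another half-site with 1 mismatch that ended at position -32. Ccng1 had a pair without a spacer and with 1 mismatch between -195 and -176, and the pairs of Bax (-201 to -181) and Sesn1 (-186 to -164) had 2 mismatches. Another pair with 2 mismatches and a spacer of 5 bases, not in capitals, overlapped the marked one at Ccng1 (-200 to -176), Bax (-216 to -192) and Sesn1 (-173 to -149). A pair was counted when both half-sites had the core C and G, at most 13 bases lay between them and at most 2 mismatches in all were present. By that definition 4.09% of all 32851 mouse promoter windows and 4 of the 13 windows here held a pair. A half-site without mismatch was held by 8.36% of all windows and by 7 of the 13 here. Either strand was counted, as the half-site reads the same on both. The other motifs searched, on both strands, were the NRF2 element TGACNNNGC (12.4% of all windows), the ATF4 element TGATGNAA (3.97%) and the heat shock element GAANNTTC (7.86%). The NRF2 element was found at Cdkn1a, the heat shock element at Sesn1, and the ATF4 element in none of the 13 windows. These matches are letters in a short window and show no binding.

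The p53 targets did not move together. Of the 10 genes, 4 rose (Aen, Cdkn1a, Ccng1 and Bax), 4 fell (Trp53inp1, Bbc3, Pmaip1 and Sesn1), and Mdm2 and Phlda3 did not pass the test (edgeR quasi-likelihood test with Benjamini-Hochberg adjustment over 15298 genes, threshold 0.05). The changes ran from log2 -1.33 to 0.93, with a median of 0.06, against a median of -0.03 over all genes tested. Of all genes tested 65.3% passed the same test in either direction, 32.3% higher and 33% lower, so that 8 called genes of 10 are near the background and no result about p53 targets. The 4 arsenic pools lay wholly above or below the 4 vehicle pools for the same number of the p53 targets, 8, where 59.4% of all genes tested showed such a separation. A stricter test against a change of 1.5-fold (edgeR glmTreat) called 10.6% of all genes and 3 of the 10, namely Trp53inp1, Bbc3 and Aen. In a bulk tissue, a lower count can come from fewer cells of a type or from less RNA per cell, and these cannot be told apart here.

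**Figure D1:**
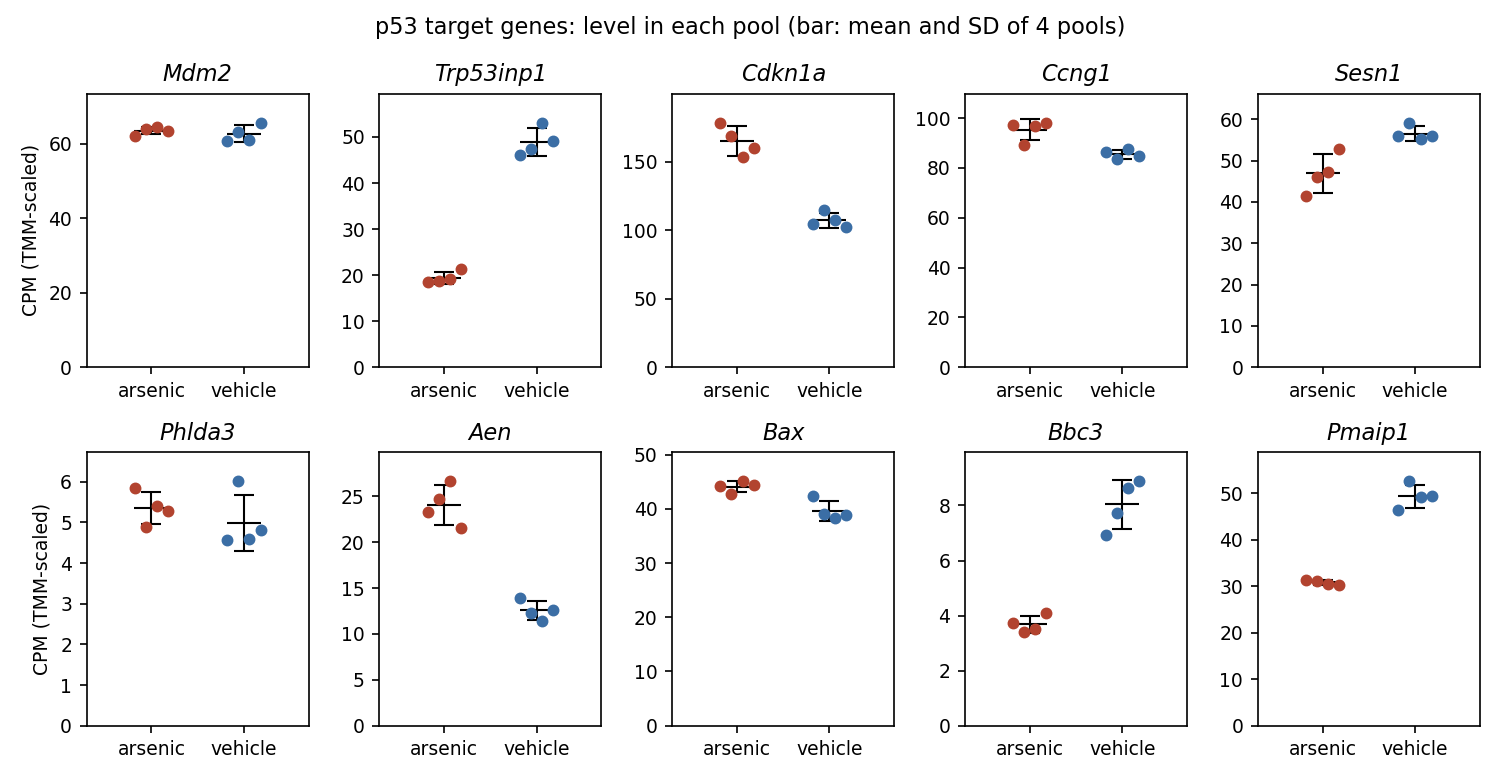
Level of each p53 target gene in each pool, in TMM-scaled CPM from 0, with 4 arsenic pools left and 4 vehicle pools right in each panel and bars for mean and SD. The groups are apart for 8 genes and overlap for Mdm2 and Phlda3.

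Total counts ran from 22630208 to 29417666 in the arsenic pools and from 18786779 to 27369320 in the vehicle pools, and the p53 targets had between 80 and 4993 counts in a library. Epithelial markers were high in every pool, their 12 genes summing to 17696 to 20293 CPM with arsenic and 16375 to 18674 CPM with vehicle. Pools differed in sex makeup, Xist running from 9.82 CPM in arsenic replicate 3 to 1392 CPM in vehicle replicate 4, and the counts of 4 p53 targets higher and 4 lower were the same without these pools. Summed markers of T cells (10.1 to 11.5 CPM with arsenic, 18.2 to 19.3 CPM with vehicle), macrophages (230.9 to 272.3 and 358.8 to 368.9 CPM) and vessels (338.1 to 354.9 and 440.4 to 485.0 CPM) were lower in every arsenic pool. Those of smooth muscle were higher (2180 to 2655 CPM with arsenic, 1826 to 2016 CPM with vehicle). Cd4 made up much of the T cell sum, at 6.89 CPM with arsenic and 11.6 CPM with vehicle on average. Of the 8 T cell markers summed, 3 were under 1 CPM in every library. In T cell markers 0 of 7 tested genes rose and 6 fell, in macrophage markers 0 of 8 and 6, in vessel markers 1 of 7 and 6, and in B and plasma cell markers 0 of 6 and 6. Smooth muscle markers had 6 of 6 higher, fibroblast markers 0 of 6 higher and 2 lower, neuron and glia markers 0 of 7 and 1, crypt markers 3 of 7 and 4, epithelial markers 6 of 12 and 4, and pancreas and liver markers 0 of 9 and 3. Of the red cell markers 1 was tested, which fell, and the 4 globin genes were at 0 in every library. Among all genes tested, 32.3% rose and 33% fell. The part of the marker shifts in the changes of p53 targets was not tested.

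Among the genes that act on p53 itself, Trp53inp1 fell and Mdm2 stayed near its vehicle level. Trp53inp1 (chr4:11156431-11174379, plus strand, ENSMUSG00000028211) codes for a stress protein that helps to activate p53 and also acts in autophagy. Its level in CPM, counts scaled to library size, was 18.6, 18.8, 19.1 and 21.4 in the arsenic pools, against 46.0, 47.4, 53.1 and 49.0 CPM in the vehicle pools. All arsenic pools were far below all vehicle pools, the largest change among the 10 genes. The fall was 2.51-fold (log2 -1.33, SE 0.06, adjusted p = 7.70e-11, quasi-likelihood test), and 1.94% of all tested genes had a lower log2 change. The authors' deposited table gives Trp53inp1 a log2 change of -1.32.

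Mdm2 (chr10:117688875-117710758, minus strand, ENSMUSG00000020184), the ubiquitin ligase of p53, stood at 62.2, 64.0, 64.5 and 63.3 CPM with arsenic and at 60.6, 63.2, 61.0 and 65.6 CPM with vehicle. The groups overlapped, and the lowest and the highest values were both from vehicle pools. Its log2 change was 0.02 with a 95% interval of -0.06 to 0.10 (adjusted p = 0.635, quasi-likelihood test). Trp53, the gene of p53, rose slightly, to 85.5 ± 4.52 CPM with arsenic against 72.7 ± 1.81 CPM with vehicle (SD, n = 4 each; log2 0.24, adjusted p = 0.000151, edgeR). Mdm4, a relative of Mdm2 that binds p53 and blocks its activity, fell to 135.2 CPM in arsenic pools on average, against 166.1 CPM in vehicle pools (log2 -0.30, adjusted p = 8.69e-06, edgeR).

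In the cell cycle pair both genes rose, Cdkn1a by much more than Ccng1. Cdkn1a (chr17:29090976-29100727, plus strand, ENSMUSG00000023067) codes for p21, which inhibits cyclin-dependent kinases and is the classic readout of p53. It reached 178.4, 168.9, 153.5 and 159.9 CPM in the arsenic pools, against 104.5, 114.8, 107.3 and 102.4 CPM in the vehicle pools. The lowest arsenic pool was well above the highest vehicle pool. The rise was 1.54-fold (log2 0.62, SE 0.05, adjusted p = 4.10e-08, quasi-likelihood test), and it was not shown to exceed 1.5-fold (glmTreat adjusted p = 0.548). In GENCODE, 273 exon bases of Cdkn1a are shared with an unclassified transcript on the other strand, and the strand setting of the counting was not given in the sources used here.

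Ccng1 (chr11:40748552-40755311, minus strand, ENSMUSG00000020326) codes for cyclin G1, which recruits a phosphatase to Mdm2. It measured 97.3, 89.0, 96.7 and 98.1 CPM with arsenic and 86.2, 83.4, 87.6 and 84.9 CPM with vehicle. Arsenic replicate 2 was close to the vehicle pools and the others were clearly above them. The rise of 1.11-fold (log2 0.16, SE 0.04, adjusted p = 0.00230, quasi-likelihood test) was small, and its sign held under each scaling tried.

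Sesn1 (chr10:41809935-41908424, plus strand, ENSMUSG00000038332), a sestrin that restrains growth signalling through mTORC1 and limits oxidative damage, fell. Its values were 41.5, 46.1, 47.3 and 52.8 CPM in the arsenic pools, against 55.9, 59.2, 55.3 and 55.9 CPM in the vehicle pools. The highest arsenic pool was just under the lowest vehicle pool. The change was log2 -0.27 (SE 0.06, adjusted p = 0.000754, quasi-likelihood test).

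The 5 death genes were divided, with the nuclease Aen and the pore-forming Bax higher, the BH3-only genes Bbc3 and Pmaip1 lower, and Phlda3 not called. Aen (chr7:78895854-78911209, plus strand, ENSMUSG00000030609) codes for a nuclease that promotes apoptosis. It had 23.3, 24.7, 26.6 and 21.5 CPM in the arsenic pools, against 13.9, 12.3, 11.5 and 12.6 CPM in the vehicle pools. All arsenic pools were far above the vehicle pools. Aen rose 1.91-fold (log2 0.93, SE 0.08, adjusted p = 4.74e-08, quasi-likelihood test), the highest change among the 10 genes, and 97.3% of all tested genes had a lower one.

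Bax (chr7:45461697-45466898, minus strand, ENSMUSG00000003873) codes for the protein that perforates the outer mitochondrial membrane. It stood at 44.2, 42.7, 45.1 and 44.5 CPM with arsenic and at 42.3, 39.1, 38.3 and 38.9 CPM with vehicle. The gap between the groups was narrow, since vehicle replicate 1 came close to arsenic replicate 2. The rise was 1.11-fold (log2 0.15, SE 0.04, adjusted p = 0.00590, quasi-likelihood test). In the annotation 192 exon bases of Bax are shared with an overlapping gene on the same strand, Gm45808, and how reads in the shared bases were assigned was not given in the sources used here.

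Bbc3 and Pmaip1 code for the BH3-only proteins PUMA and NOXA, which neutralise the protective members of the BCL2 family. Bbc3 (chr7:16308393-16318205, plus strand, ENSMUSG00000002083) was low in all pools, with 3.72, 3.40, 3.52 and 4.11 CPM in the arsenic pools against 6.93, 7.73, 8.63 and 8.88 CPM in the vehicle pools. No arsenic pool came near the vehicle pools, although these varied among themselves. The fall was 2.17-fold (log2 -1.12, SE 0.11, adjusted p = 2.78e-07, quasi-likelihood test). Pmaip1 had 31.3, 31.0, 30.4 and 30.3 CPM in the arsenic pools, against 46.4, 52.5, 49.1 and 49.3 CPM in the vehicle pools. The arsenic pools were almost alike. Pmaip1 fell 1.60-fold (log2 -0.68, SE 0.04, adjusted p = 5.18e-09, quasi-likelihood test). Its change was called larger than 1.5-fold only when vehicle replicate 1 was left out (glmTreat adjusted p = 0.0151, against 0.0600 with all pools).

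Phlda3 (chr1:135766119-135769136, plus strand, ENSMUSG00000041801), which competes with the survival kinase AKT for membrane lipids, was at 5.86, 4.89, 5.41 and 5.27 CPM with arsenic and 4.56, 6.01, 4.58 and 4.82 CPM with vehicle. Vehicle replicate 2 was the highest of all pools, and the groups overlapped. The log2 change was 0.10 with a 95% interval of -0.14 to 0.33 (adjusted p = 0.460, quasi-likelihood test).

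**Figure D2:**
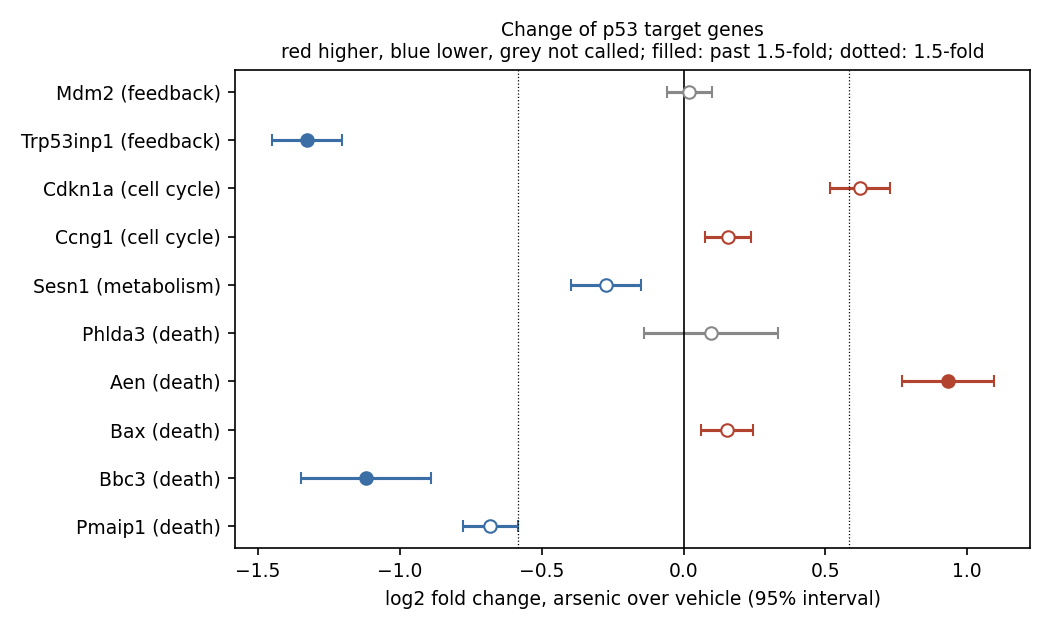
Log2 fold change of arsenic over vehicle on the x axis for the 10 p53 target genes, ordered by role, with 95% intervals. Trp53inp1, Bbc3 and Aen, drawn filled, passed the test against 1.5-fold, and the intervals of Mdm2 and Phlda3 include 0.

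Per length, the order of the 10 genes differed between the groups. In CPM per kilobase of merged exons, Cdkn1a was highest in both groups, at 46.5 ± 3.05 with arsenic and 30.2 ± 1.53 with vehicle (SD, n = 4 each). Bax (28.0 ± 0.637 with arsenic, 25.2 ± 1.15 with vehicle) and Ccng1 (27.1 ± 1.20 with arsenic, 24.4 ± 0.508 with vehicle) followed and did not differ from each other beyond their spread. Pmaip1 stood at 11.3 ± 0.176 with arsenic and 18.1 ± 0.917 with vehicle, Sesn1 at 11.8 ± 1.16 with arsenic and 14.2 ± 0.439 with vehicle, and Mdm2 at 12.5 ± 0.199 with arsenic and 12.3 ± 0.448 with vehicle. With arsenic, Mdm2 was above Pmaip1 by more than the summed SDs, and Sesn1 differed from neither by that much. With vehicle, Pmaip1 was above Sesn1 and Sesn1 above Mdm2. At the lower end, the order with arsenic was Aen (4.15 ± 0.373), Phlda3 (3.44 ± 0.258), Trp53inp1 (3.01 ± 0.202) and Bbc3 (1.73 ± 0.147). With vehicle it was Trp53inp1 (7.55 ± 0.472), Bbc3 (3.79 ± 0.419), Phlda3 (3.20 ± 0.442) and Aen (2.17 ± 0.174). Phlda3 differed beyond the summed SDs neither from Trp53inp1 with arsenic nor from Bbc3 with vehicle. Dividing by the longest transcript set Mdm2 at 20.2 with arsenic and 19.9 with vehicle, above Pmaip1 and Sesn1 in both groups, and Bax at 40.1 with arsenic and 36.1 with vehicle. Ccng1 stayed at 27.1 with arsenic and 24.4 with vehicle by that length, so that Bax was above it in both groups.

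Within a group the 10 genes showed no common movement between pools. Over the 8 libraries, the deviations of log2 CPM from the group mean had a Pearson r above 0 for 21 of 45 gene pairs, with a median of -0.03. The highest r was that of Trp53inp1 with Bbc3 (0.79) and the lowest that of Aen with Bbc3 (-0.78). Outside the list, Aldh1a1 (0.98), Dnm2 (0.97) and Lrrc59 (0.97) were closest to Cdkn1a by this measure among 11686 genes of at least 5 CPM. These values describe only 8 libraries, the genes of a library share its depth and scaling, and with so many genes high values arise in some.

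Several p53 targets and their gene family relatives had changes of opposite sign or unlike size. Cdkn1b and Cdkn1c, the other inhibitors of the p21 family, fell where Cdkn1a rose, Cdkn1b by 0.31 and Cdkn1c by 1.27 on the log2 scale. The imprinted growth inhibitor Cdkn1c had 66.7, 66.7, 68.8 and 65.3 CPM in the arsenic pools against 144.5, 158.1, 167.3 and 177.7 CPM in the vehicle pools, with all arsenic pools far below. Ccng2, the other cyclin G, fell by 0.59, while Trp53inp2 stood at log2 0.06 (adjusted p = 0.260, edgeR). The sestrins all fell, Sesn2, which is induced by stress, by 0.89 on the log2 scale and thus more than Sesn1, and Sesn3 by 0.29. Of the death-related families, Bak1, which shares the pore-forming role of Bax, rose by log2 0.43, and Bok stood at -0.18 (adjusted p = 0.0509, edgeR). Isg20l2 (0.37) and Isg20 (0.35), nucleases related to Aen, rose less than Aen. Phlda1 rose by log2 0.38 with overlapping pools. Phlda2, an imprinted gene known from placental growth, had 5.68, 4.25, 4.71 and 3.80 CPM in the arsenic pools against 0.40, 0.78, 0.48 and 0.48 CPM in the vehicle pools (log2 3.08, SE 0.21). In all, 5 of the 13 relatives rose and 6 fell (median log2 -0.18), where 32.3% of all genes rose and 33% fell. The sign of each relative was the same under 3 scalings. Apart from the pair of Mdm2 and Mdm4, the differences between a gene and its relatives were not tested.

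**Figure D3:**
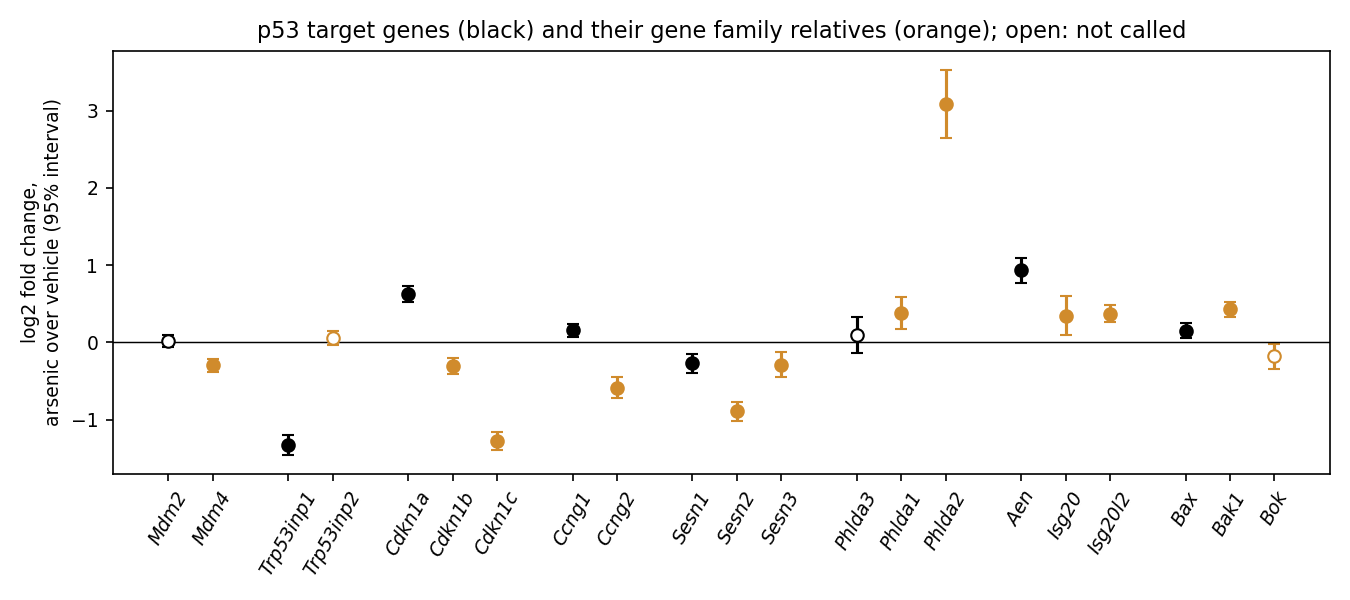
Log2 fold change of arsenic over vehicle on the y axis, with 95% intervals, for 8 p53 target genes (black) and their family relatives (orange), open where not called. Cdkn1a lies above 0 with Cdkn1b and Cdkn1c below it, and Phlda2 is the highest point at 3.08.

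Ratios of raw counts within a pool do not depend on the scaling of libraries. The ratio of Cdkn1a to Trp53inp1 was 9.60, 8.99, 8.03 and 7.47 in the arsenic pools, against 2.27, 2.42, 2.02 and 2.09 in the vehicle pools, 3.87-fold higher. The ratio of Mdm2 to Mdm4 was 0.481, 0.478, 0.483 and 0.440 with arsenic and 0.365, 0.390, 0.356 and 0.398 with vehicle, 1.25-fold higher. Bax to Bcl2l1, which codes for the protective BCL-XL, gave 0.849, 0.774, 0.891 and 0.823 with arsenic and 0.624, 0.576, 0.530 and 0.564 with vehicle, 1.46-fold higher. In these 3 ratios all arsenic pools were above all vehicle pools, which gives the smallest p that 70 arrangements allow (two-sided exact permutation test, p = 0.0286, adjusted over 4 ratios 0.0381). For Cdkn1a to Trp53inp1 and Bax to Bcl2l1 that separation was fixed in advance. The first gene of each pair was higher in every arsenic pool than in every vehicle pool, and the second lower. For Mdm2 to Mdm4 it followed from the ranges of the 2 genes. Mdm2 lay between 60.6 and 65.6 CPM in all pools. Mdm4 lay at 129.3 to 143.9 CPM with arsenic and at 161.8 to 171.5 CPM with vehicle. The p of these 3 ratios is therefore no evidence beyond the single genes. The 4 pairs were chosen with earlier results of these data known. Bax to Bcl2, another protective gene, was 3.03, 2.92, 2.99 and 2.81 with arsenic and 2.88, 2.94, 2.68 and 2.79 with vehicle. These groups overlapped (exact permutation p = 0.200).

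**Figure D4:**
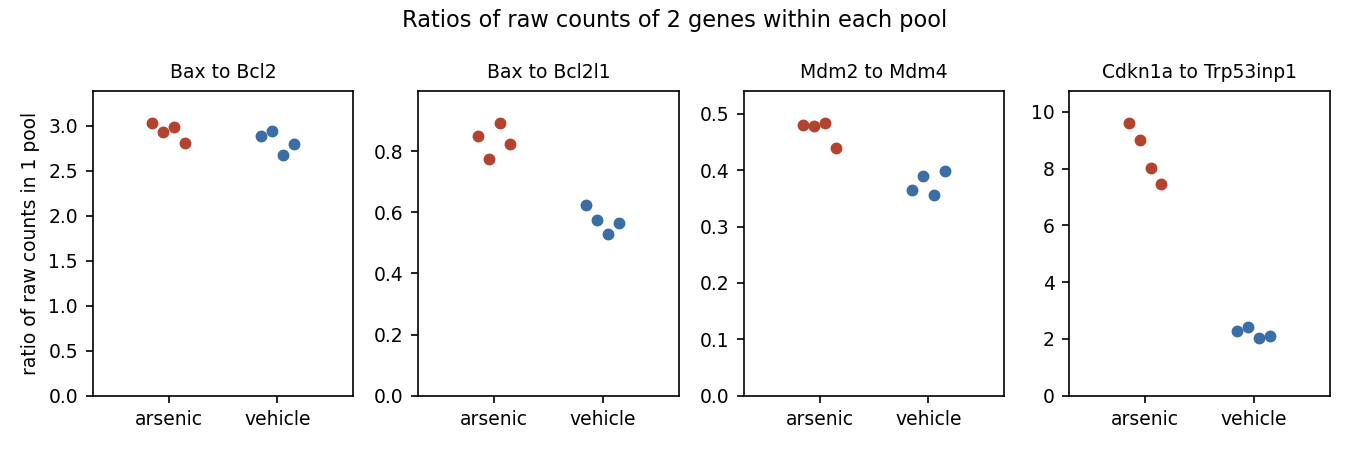
Ratio of raw counts of 2 genes within each pool, from 0, with 4 arsenic pools left and 4 vehicle pools right in each panel. The arsenic pools lie above the vehicle pools in 3 ratios and overlap them for Bax to Bcl2.

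In a wider list of p53 targets, 13 of 44 tested genes rose, 17 fell and 14 were not called (median log2 -0.01), near the shares of 32.3% higher and 33% lower among all genes. Against 1.5-fold, 3 rose and 2 fell, again near the 10.6% of all genes. Among those that rose were Ephx1 (log2 1.38), an epoxide hydrolase that NRF2 also controls, Gtse1 (1.01), a protein of G2 and mitosis that restrains p53, the ribosomal protein gene Rps27l (0.81), and Tigar (0.69), which lowers glycolytic flux. Those that fell included the death receptor gene Fas (-0.90), Sesn2 (-0.89), the membrane protein gene Perp (-0.65), at 154.4 ± 3.50 CPM with arsenic and 242.9 ± 8.63 CPM with vehicle (SD, n = 4 each), and the tetraspanin gene Cd82 (-0.55).

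Of p53 and its regulators, 13 of 28 tested genes rose and 8 fell, by small amounts (median log2 0.09), and none passed the test against 1.5-fold. Over all genes tested, 32.3% rose, 33% fell and 10.6% passed that test. Rpl11 (log2 0.63), a ribosomal protein that can bind and inhibit MDM2, the break repair nuclease gene Mre11a (0.54) and the histone variant gene H2afx (0.49) rose. Ppp1r13b (-0.33) and Trp53bp2 (-0.31), whose ASPP proteins steer p53 towards death genes, fell, as did Mdm4 and the acetyltransferase gene Crebbp (-0.19). The p53 relatives Trp63 and Trp73 had 7 and 8 counts over all libraries and, like Cdkn2a with 23, were not tested.

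In the BCL2 and caspase list 9 of 27 tested genes rose and 14 fell (median log2 -0.18), where 32.3% of all genes rose and 33% fell. Cytochrome c (Cycs), at 217 ± 12.9 CPM with arsenic and 101 ± 6.92 CPM with vehicle (SD, n = 4 each), rose by log2 1.11. The inhibitor of apoptosis gene Birc5, a gene of mitosis as well, rose by 1.07, the nuclease gene Endog by 0.60 and Bak1 by 0.43. The BH3-only genes Bcl2l11 (log2 -0.83), Bmf (-0.67), Bid (-0.48) and the scarce Bik (-0.79) fell, as Bbc3 and Pmaip1 did, while the BH3-only gene Bad rose slightly (0.12, adjusted p = 0.0254, edgeR). Markers of T cells, macrophages and vessels were lower in the same arsenic pools, as given above, and their part in the falls of these genes was not tested.

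p21 can repress genes of the cell cycle through the DREAM complex, and 35 of 35 tested DREAM targets rose, as Cdkn1a did (median log2 0.78, against -0.03 for all genes tested). Of them 23 passed the test against 1.5-fold. Over all genes tested, 32.3% rose, 33% fell and 10.6% passed the test against 1.5-fold. The part of Cdkn1a in the changes of the DREAM targets was not tested. The ribonucleotide reductase gene Rrm2 rose by log2 1.54. The mitotic kinase gene Aurka was at 39.6 ± 1.68 CPM with arsenic and 17.4 ± 1.08 CPM with vehicle (SD, n = 4 each; log2 1.19), and Ccnb1 and Plk1 rose by log2 1.11 and 1.10. In the list of CDK inhibitors and G1 genes 13 of 22 rose and 5 fell (median log2 0.21). Ccne1 (1.06), Ccna2 (0.94) and Ccne2 (0.63), cyclins of S phase entry, and the pocket protein partner gene E2f4 (0.58) rose, and Cdkn2d (-0.60), the pocket protein gene Rbl2 (-0.49), Cdkn1c and Cdkn1b fell. Of the crypt markers, the cycling genes Mki67 (0.67) and Top2a (0.62), both already counted among the DREAM targets, rose. The stem cell and progenitor genes were divided, with Smoc2 (0.37) higher and Lgr5 (-0.47), Olfm4 (-0.48), Ascl2 (-0.51) and Sox9 (-0.41) lower. Whether the share of dividing cells differed between the groups was not tested.

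**Figure D5:**
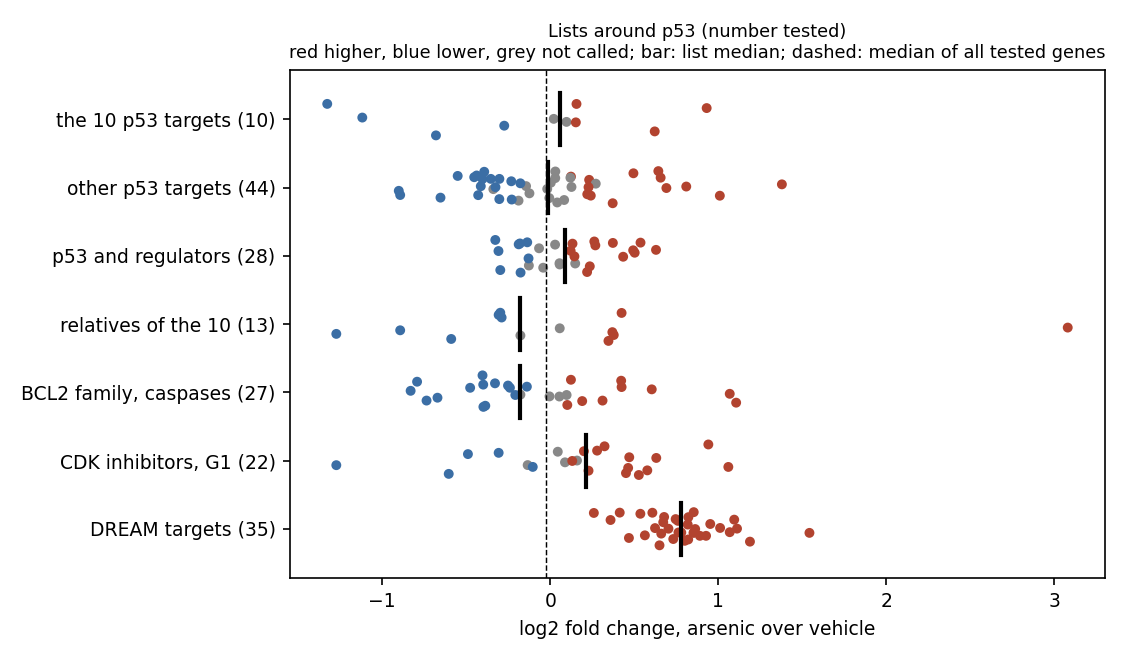
Log2 fold change of arsenic over vehicle on the x axis for each tested gene of 7 lists, with black bars at the list medians and a dashed line at the median of all tested genes. The p53 targets spread to both sides of 0, and all 35 DREAM targets lie above it.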

How the data were processed

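RNA of the small intestine was measured in 4 arsenic and 4 vehicle pools of 3 mice, grouped by the treatment label. The submitters' processing notes name mm10, DESeq2 1.34.0, STAR 2.7.9a and bcl2fastq 2.20. A read counter, annotation or strand setting was not given in the sources used here. The authors deposited raw counts per gene symbol, which were the input of every test. The authors' deposited table of log2 fold changes and adjusted p-values was read only for comparison.

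Genes were filtered by filterByExpr (minimum count 10, minimum total 15), scaled by TMM and tested with edgeR 4.0.16 (glmQLFit and glmQLFTest, two-sided, and glmTreat at 1.5-fold) in R 4.3.3, group being the only term, with Benjamini-Hochberg adjustment over all genes. CPM are TMM-scaled. The quasi-likelihood test was also run on simulated counts drawn around the means of these data. Far fewer genes were changed there than were called here, so that run does not check the present setting. Log2 CPM for deviations had a prior count of 2. Intervals are 95%. The 10 genes, 17 further gene lists, tests and alternatives (DESeq2 1.42.0, limma 3.58.1 voom, other scalings and filters, pools left out) were chosen with earlier results of these data known, and the alternative without 2 pools with extreme sex-linked counts rests on them as well. The named genes were the 10, their relatives, Trp53, the genes of the ratios, the 3 closest to Cdkn1a, and up to 4 per direction with the largest change in each list at 5 CPM or more; Trp63, Trp73, Cdkn2a, Bad, Bik, Xist and Gm45808 were added after their values were seen. Some genes that this rule names are not reported here. Positions, gene spans and exon lengths are from GENCODE M21 on mm10 by symbol (10 of 10 matched). No pools looked like one library deposited again: a chi-square divided by its degrees of freedom was 2.97 to 13.4 for pairs within a group.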

Additional observations from a re-analysis of the deposited data

Results flagged for a closer look

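In 28 groups of 4 pools (10 genes and 4 ratios in each of 2 treatments), 3 held a pool far from the other 3, and chance gives about 1 such group in 20. Ccng1 in arsenic replicate 2 was at 89.0 CPM, with the other arsenic pools at 96.7 CPM or more. Sesn1 in vehicle replicate 2 was at 59.2 CPM, with the other vehicle pools at 55.9 CPM or less. The ratio of Mdm2 to Mdm4 in arsenic replicate 4 was 0.440, with the other arsenic pools at 0.478 or more. The calls of Ccng1 and Sesn1 were on the same side of the threshold without each of these pools. So was the adjusted p of the Mdm2 to Mdm4 ratio. Its groups are wholly apart with all pools, and so with any pool left out, which makes that check a weak one.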

How the results depend on the processing

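Under 15 alternatives (other scalings, filters and tests, each pool left out, and both pools with extreme sex-linked counts left out) the number of p53 targets called was 4 higher and 4 lower each time, and each called gene kept its direction and its call. The weakest was Bax, with log2 changes of 0.13 to 0.19 and an adjusted p of up to 0.0419. Mdm2, never called, had a log2 change of -0.0063 with upper-quartile scaling and between that and 0.06 elsewhere. With each pool left out in turn, 3 to 4 of the p53 targets passed the test against 1.5-fold, and 5 did when an adjusted p below 0.05 and a fitted change of 1.5-fold were asked for instead, Cdkn1a and Pmaip1 being the added ones, because that rule does not test the fold itself. The log2 difference of the ratios with a pool left out was 0.03 to 0.08 for Bax to Bcl2, 0.50 to 0.58 for Bax to Bcl2l1, 0.29 to 0.35 for Mdm2 to Mdm4 and 1.89 to 2.01 for Cdkn1a to Trp53inp1. The counts over all genes ran from 4626 to 5168 higher and from 4506 to 5408 lower. The 13 relatives and 35 DREAM targets each had the same sign under 3 scalings. No paired analysis was possible because the labels give the pools no numbers shared between the groups. The low counts of Phlda3 and Bbc3 limit the precision of their changes.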
